A study of Mus musculus with 12 samples.

Results

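Npy, Tdrd5, Tdrd9, Strc, Col4a3, Capn11, Camk2b, Lonrf2 and Nmnat2 are genes whose best-known products belong to nerve, germ cell, inner ear or kidney and not to blood. These 9 of the 24411 genes listed in the deposited tables were chosen by name, because their expected counts and TPM in these same bone marrow libraries lay near 0 in some donor genotypes and higher in others. No numeric threshold was part of the choice. Their levels and the ratios between genotypes are therefore descriptions with no test, and only genes outside the 9 carry p-values below. All 9 passed the low-count filter that kept 13755 genes, but that filter keeps any gene with enough reads in the libraries of 1 genotype, so passing it says nothing of the other genotypes.

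The RNA came from bone marrow of femora and tibiae, gated as negative for lineage markers and positive for cKit, a gate that holds stem cells and early progenitors of blood. CD45.2+ donor marrow of the C57BL/6 strain had been mixed with wild-type CD45.1+ support marrow and given to lethally irradiated CD45.1+ mice, which later received 3 doses of pIpC at 20 mg/kg. Cells were taken 6 months after pIpC, and poly(A) RNA was sequenced in unstranded libraries. The 4 donor genotypes, with 3 libraries each, carried Sf3b1-K700E and Inv(3) together (called the double mutant here), Inv(3) alone, Sf3b1-K700E alone, or neither (the Mx1-Cre control). All donors, controls included, carried Mx1-Cre, a recombinase gene under an interferon-responsive promoter that pIpC switches on and that also acts outside blood. Inv(3) models the human leukemia rearrangement that sets a GATA2 enhancer beside EVI1 (Mecom in mouse), and Sf3b1-K700E is a heterozygous point mutation of a core splicing factor. The labels do not say whether the gate also selected CD45.2, so that support and recipient cells may be included, or whether the replicates are separate mice, so p-values measure the spread between these libraries.

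Total counts per library ran from 73074788 to 86555636. Kit, the receptor used for the gate, was at 420 to 468 CPM (counts over TMM-scaled library size) in all 12 libraries. Y-linked RNA set the Inv(3) group apart: the summed counts of Ddx3y, Eif2s3y, Kdm5d and Uty were 4 to 8 per library there, against 19200 to 25380 per library in the other genotypes. Xist, the RNA of the inactive X chromosome, was at 23.2 to 40.5 CPM in the double mutant, 1794 to 2095 CPM in Inv(3), 77.1 to 210 CPM in Sf3b1-K700E and 24.0 to 39.9 CPM in control. Any comparison that includes the Inv(3) group carries both differences. The double mutant and Sf3b1-K700E both hold Y-linked RNA but differ in Xist, by -2.39 ± 0.35 log2 units (SE, edgeR adjusted p = 0.00026), as do Sf3b1-K700E and control, by 2.28 ± 0.35 (adjusted p = 0.0070). The part of these differences in the results was not tested. All 9 genes are autosomal. Sf3b1 itself averaged 656 ± 29.2 CPM in the double mutant, 606 ± 17.1 CPM in Inv(3), 625 ± 38.5 CPM in Sf3b1-K700E and 634 ± 34.3 CPM in control (SD, n = 3 each), which is no check of a point mutation. Mouse Mecom averaged 10.2 ± 1.12 CPM in the double mutant, 4.58 ± 1.14 CPM in Inv(3), 8.48 ± 2.18 CPM in Sf3b1-K700E and 6.15 ± 0.583 CPM in control (SD, n = 3 each), so it was not raised in Inv(3) and does not check that label. It was not called in Inv(3) against control (-0.42 ± 0.20 log2 units, SE, edgeR adjusted p = 0.11, called lower without Inv(3) replicate 1) or in the double mutant against Sf3b1-K700E (0.26 ± 0.19, adjusted p = 0.28), and the double mutant lay above Inv(3) by 1.15 ± 0.20 (adjusted p = 0.0031).

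As background, genes of one tissue are kept silent in others by several layers of repression. Promoters of germ-cell genes are commonly held off by DNA methylation and by the PRC1.6 complex, and many neuronal genes by the repressor REST with its CoREST partners. Of the 9, Npy encodes neuropeptide Y, a peptide transmitter of the hypothalamus and of sympathetic nerves that is also made in rodent megakaryocytes. Tdrd5 and Tdrd9 encode tudor-domain proteins of male germ cells that take part in silencing retrotransposons with piRNAs, small RNAs of the germ line. Strc encodes stereocilin of the hair bundles of the inner ear, and Col4a3 the alpha-3 chain of type IV collagen in the basement membrane of kidney glomeruli and lung alveoli. Capn11 is a calpain protease of testis, Camk2b is the beta subunit of calcium/calmodulin-dependent kinase II of brain, Lonrf2 is a RING-finger protein of neurons, and Nmnat2 makes NAD in axons.

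The promoters of 5 of them are shown, since Npy, Tdrd5, Tdrd9 and Strc were high together in both genotypes with Inv(3) while Capn11 was not. Each runs 5′ to 3′ from 250 bases before the start to 50 after it (RefSeq, GRCm38.p6), with CG dinucleotides, the sites of DNA methylation, in capitals.
Npy, chr6:49822460-49822759, plus strand: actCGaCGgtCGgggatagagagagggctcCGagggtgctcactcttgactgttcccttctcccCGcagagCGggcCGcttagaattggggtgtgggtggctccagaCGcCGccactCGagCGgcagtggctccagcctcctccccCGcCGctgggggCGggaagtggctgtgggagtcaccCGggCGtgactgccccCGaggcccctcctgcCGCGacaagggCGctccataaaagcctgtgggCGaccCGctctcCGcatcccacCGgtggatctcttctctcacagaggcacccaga
Tdrd5, chr1:156303299-156303598, minus strand: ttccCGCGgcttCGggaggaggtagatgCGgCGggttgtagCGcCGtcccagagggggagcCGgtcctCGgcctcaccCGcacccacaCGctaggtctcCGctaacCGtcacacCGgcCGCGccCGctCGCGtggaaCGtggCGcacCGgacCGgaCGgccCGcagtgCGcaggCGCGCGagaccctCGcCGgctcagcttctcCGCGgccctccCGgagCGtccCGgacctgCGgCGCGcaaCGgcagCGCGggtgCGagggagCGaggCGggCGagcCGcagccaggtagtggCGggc
Tdrd9, chr12:111971309-111971608, plus strand: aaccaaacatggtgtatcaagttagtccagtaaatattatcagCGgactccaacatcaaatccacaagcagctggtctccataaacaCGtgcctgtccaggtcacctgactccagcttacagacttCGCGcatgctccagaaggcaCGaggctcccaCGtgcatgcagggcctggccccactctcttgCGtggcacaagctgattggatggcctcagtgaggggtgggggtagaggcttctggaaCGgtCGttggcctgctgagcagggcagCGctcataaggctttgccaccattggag
Strc, chr2:121380891-121381190, minus strand: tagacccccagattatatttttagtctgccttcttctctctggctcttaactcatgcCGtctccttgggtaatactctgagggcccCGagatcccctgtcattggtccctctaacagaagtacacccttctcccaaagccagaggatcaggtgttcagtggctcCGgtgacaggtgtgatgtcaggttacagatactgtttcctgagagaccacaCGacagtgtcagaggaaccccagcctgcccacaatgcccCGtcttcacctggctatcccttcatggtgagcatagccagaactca
Capn11, chr17:45659260-45659559, minus strand: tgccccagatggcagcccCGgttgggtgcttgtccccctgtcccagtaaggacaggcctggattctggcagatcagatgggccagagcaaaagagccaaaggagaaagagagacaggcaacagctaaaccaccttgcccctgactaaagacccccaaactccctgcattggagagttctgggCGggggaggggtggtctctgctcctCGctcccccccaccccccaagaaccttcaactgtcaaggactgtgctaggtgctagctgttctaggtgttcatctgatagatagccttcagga

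The promoters of the 4 genes that were high together differed widely in CG content. Tdrd5 held 48 CG dinucleotides, an observed-over-expected ratio of 1.11 that was above that of 98.2% of 32851 mouse promoters of the same length, and Npy held 24 with a ratio of 0.693. Tdrd9 held 10 with a ratio of 0.430, Strc 5 with a ratio of 0.251 and Capn11 3 with a ratio of 0.122, beside a median of 0.384 over all promoters. Camk2b, at 51 CG dinucleotides and a ratio of 1.28, was above 99.9% of promoters, and the ratio was 0.801 for Lonrf2 and 0.714 for Nmnat2. Motifs of 5 kinds were searched by their letters on both strands of the 8 promoters found. The only matches were CACGTG in Tdrd9, at 165 and 95 bases before the start, and 7.15% of all promoters held that motif. The other motifs had no match in the 8: GATAAG, the GATA motif held by 7.44% of all promoters, TTCCGG, the ETS motif held by 14.9%, TGACGTCA, the cAMP response element held by 1.79%, and TGACTCA, the AP-1 motif held by 5.20%.

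Across the 9 genes, the genotypes with Inv(3) were set apart from those without it by 7 of them in the same direction on both backgrounds, while Capn11 went opposite ways and Camk2b was set apart only beside Sf3b1-K700E. In the double mutant against Sf3b1-K700E, 7 of the 9 had all 3 libraries higher (29.6% of all genes tested did) and Lonrf2 and Nmnat2 had all 3 lower (28.0% of all genes tested). In Inv(3) against control, 5 had all libraries higher (24.9% of all genes tested) and 3, Capn11, Lonrf2 and Nmnat2, had all lower (26.9%), while Camk2b overlapped. Against Inv(3), the double mutant had Npy, Col4a3, Capn11 and Camk2b, 4 of the 9, higher without overlap (21.9% of all genes tested), none was lower (17.6%), and 5 overlapped. In Sf3b1-K700E against control, Nmnat2 alone was higher without overlap (17.7% of all genes tested), Strc, Capn11 and Camk2b, 3 in all, were lower (15.8%), and 5 overlapped. The double mutant against control had 7 higher (27.3% of all genes tested) and 2 lower (27.5%). By the edgeR test, with p adjusted over all 13755 genes, 49.2% of genes were called in the double mutant against Sf3b1-K700E, 38.7% in Inv(3) against control, 22.6% in the double mutant against Inv(3), 8.84% in Sf3b1-K700E against control (3.94% higher and 4.90% lower), and 41.1% in the double mutant against control (20.8% higher and 20.4% lower). Since the 9 were chosen for such differences, nothing is read from these counts. In bulk RNA, fewer cells that make a transcript and less of it per cell cannot be told apart.

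**Figure D1:**
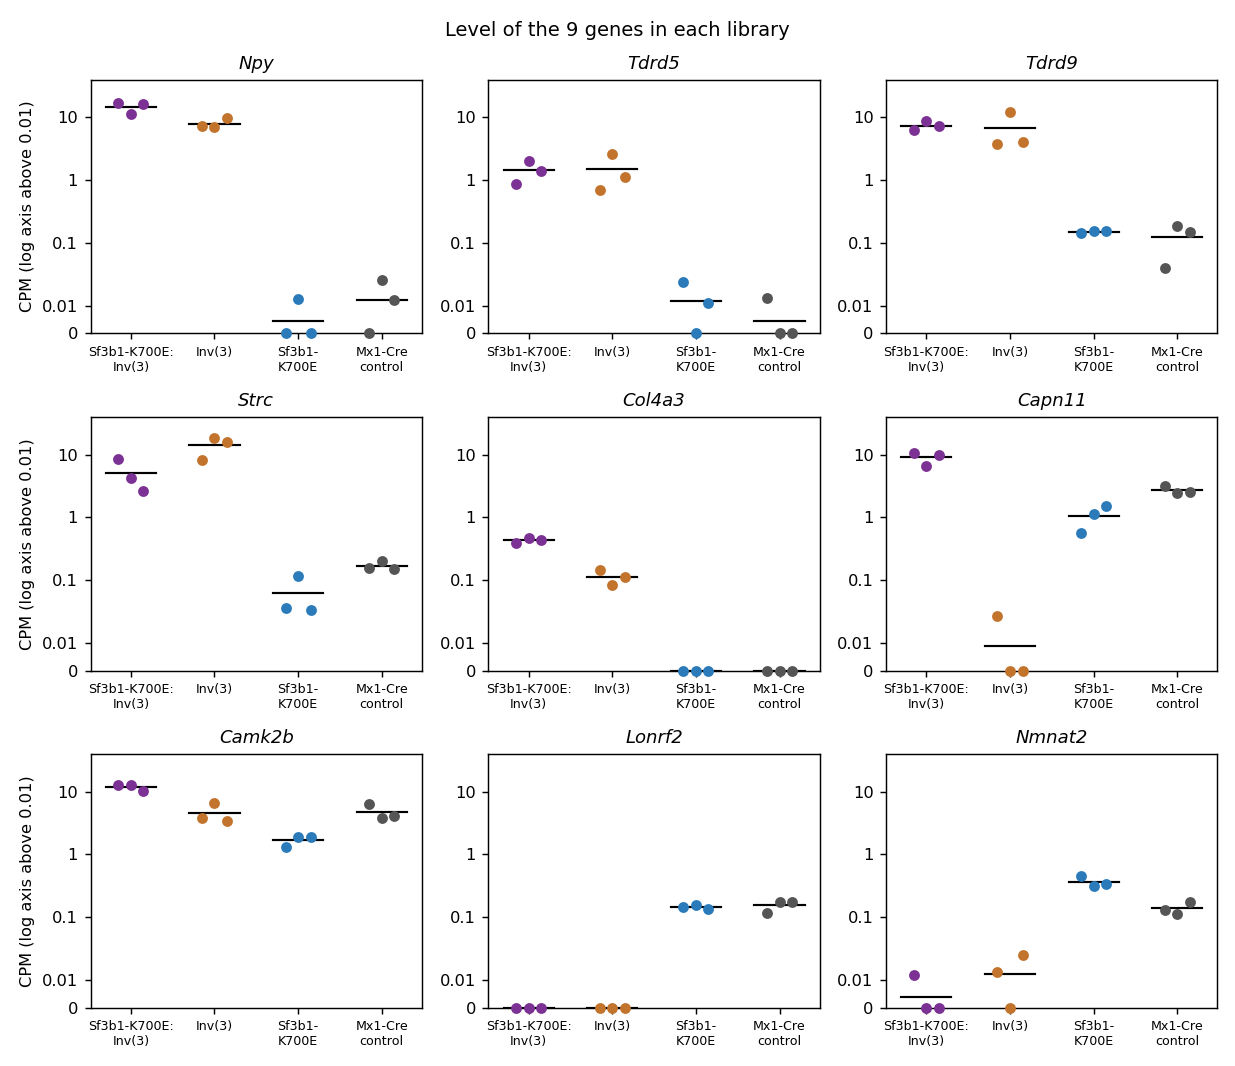
Level of each of the 9 genes in CPM (y axis, log scale above 0.01, with 0 at the bottom) in the 3 libraries of each donor genotype (x axis); points are libraries and bars are group means. Npy, Tdrd5, Tdrd9 and Strc sit high in both genotypes with Inv(3), Capn11 drops to 0 to 2 counts in Inv(3) alone, and Lonrf2 and Nmnat2 sit high in both genotypes without Inv(3).

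Neuropeptide Y stood out for its level. Npy (chr6:49822710-49829507, GRCm38) had 1415, 873 and 1261 counts in the double mutant, 555, 507 and 784 in Inv(3), 0, 1 and 0 in Sf3b1-K700E, and 0, 2 and 1 in control. Every library with Inv(3) was high, every library without it was at 0 to 2, and the double-mutant libraries all lay above those of Inv(3) alone. Per length, Npy reached 66.9 ± 14.6 TPM in the double mutant and 34.0 ± 6.27 TPM in Inv(3) (SD, n = 3), above 90.2% and 82.1% of the listed genes. The ratio of summed counts, scaled by library size, was 634 in Inv(3) against control (95% counting interval 217 to 3076). It was 3754 in the double mutant against Sf3b1-K700E (673 to 148329), where all 6 libraries hold Y-linked RNA, and 1.87 in the double mutant against Inv(3) (1.77 to 1.98). These intervals, here and below, cover counting error only, and not the spread between libraries.

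Most relatives and receptors of Npy were not detected beside it. Peptide YY (Pyy), pancreatic polypeptide (Ppy) and the receptors Npy2r, Npy4r, Npy5r and Npy6r had no count in any genotype, and Npy1r had none outside Inv(3). Dpp4, the peptidase that trims neuropeptide Y, was the 1 tested gene of 8 and was called in neither comparison, at -0.18 ± 0.12 log2 units in Inv(3) against control (SE, edgeR adjusted p = 0.26) and -0.00 ± 0.12 in the double mutant against Sf3b1-K700E (adjusted p = 0.996). Since rodent megakaryocytes make Npy, their markers were read as well. Their summed level was 39.5 to 72.8 CPM in the double mutant, 31.8 to 59.6 CPM in Inv(3), 195 to 285 CPM in Sf3b1-K700E and 166 to 208 CPM in control, low where Npy was high, and their part in its level was not tested. Of 11 tested, 8 fell and none rose in Inv(3) against control, and 9 fell and none rose in the double mutant against Sf3b1-K700E, with medians of -1.99 and -1.77 beside 0.00 and 0.03 over all genes tested, of which 18.4% rose and 20.3% fell and 25.7% rose and 23.5% fell. Of 12 markers of sympathetic neurons and Schwann cells, 4 were tested, and Th and Dbh had no count in any genotype. The 12 summed to 161 to 199 CPM in the double mutant and 122 to 136 CPM in Inv(3). They were at 160 to 171 CPM in Sf3b1-K700E and 144 to 151 CPM in control. None rose and 3 fell in Inv(3) against control (1 without any 1 control library), beside the same shares. In the double mutant against Sf3b1-K700E, 1 rose and 1 fell, beside 25.7% and 23.5% of all genes tested. Only Slc18a2 rose in the double mutant against Inv(3), by 1.36 ± 0.16 (SE, edgeR adjusted p = 0.00074), and none fell. There 13.4% of all genes tested rose and 9.13% fell. Npy and its nearest protein-coding neighbours did not share a pattern: Stk31 had no count in any library, and Mpp6 was called in neither comparison.

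The germ-cell genes Tdrd5 and Tdrd9 were high in the same libraries as Npy. Tdrd5 (chr1:156255296-156303664) had 72, 156 and 107 counts in the double mutant, 54, 193 and 90 in Inv(3), 2, 0 and 1 in Sf3b1-K700E, and 1, 0 and 0 in control. Tdrd9 (chr12:111971559-112068854) had 531, 675 and 548 counts in the double mutant, 291, 897 and 331 in Inv(3), 12, 12 and 14 in Sf3b1-K700E, and 3, 15 and 12 in control. No library with Inv(3) overlapped one without it for either gene, and the double mutant and Inv(3) overlapped each other for both. The ratio in Inv(3) against control was 347 for Tdrd5 (61.9 to 13749.8). For Tdrd9 it was 52.2 (36.4 to 77.6). In the double mutant against Sf3b1-K700E it was 118 for Tdrd5 (40.1 to 576). For Tdrd9 that ratio was 48.8 (35.4 to 69.2).

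Per length, Tdrd9 averaged 2.71 ± 0.419 TPM in the double mutant and 2.30 ± 1.59 TPM in Inv(3), and Tdrd5 0.770 ± 0.310 TPM and 0.763 ± 0.510 TPM (SD, n = 3). Replicate 2 of Inv(3) held 57.3% of the Tdrd5 counts and 59.1% of the Tdrd9 counts of that group. Without that library the log2 ratio of group means (CPM + 0.05) in Inv(3) against control was 4.14 in place of 4.83 for Tdrd5. For Tdrd9 it was 4.51 in place of 5.28.

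The other genes of the piRNA pathway did not move as a block. Of 26 genes, 25 were in the tables and 13 were tested, of which 4 rose and 4 fell in Inv(3) against control (edgeR, adjusted p under 0.05), beside 18.4% higher and 20.3% lower of all genes tested. Without Inv(3) replicate 2 only 1 of them fell and 4 rose. Fkbp6, a co-chaperone of piRNA loading, rose by 3.17 ± 0.23 log2 units (SE, adjusted p = 2.1e-06) and Exd1, an RNA-binding protein of piRNA production, by 1.22 ± 0.21 (adjusted p = 0.00087). Ddx4, the RNA helicase of germ cells, fell by 1.54 on the log2 scale (SE 0.24, adjusted p = 0.00039). Against Sf3b1-K700E, 4 rose and 5 fell in the double mutant, beside 25.7% higher and 23.5% lower of all genes tested, again with Fkbp6 (2.48 ± 0.21) and Exd1 (1.16 ± 0.21) up and Ddx4 (-1.98 ± 0.23) down. The medians were 0.00 and -0.09, beside 0.00 and 0.03 over all genes. Among tudor-domain relatives, Tdrd7 was called in both comparisons, and Tdrkh and Snd1 in the double mutant against Sf3b1-K700E alone. Both were also called in Sf3b1-K700E against control. Tdrkh was at 1.29 ± 0.18 there (SE, edgeR adjusted p = 0.0049). Snd1 was at -0.22 ± 0.04 (adjusted p = 0.013), a call lost without control replicate 2 or Sf3b1-K700E replicate 2. Piwil1, Mael, Asz1, Mov10l1 and Stk31, other genes of piRNA production in germ cells, had no count in any genotype.

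Of 30 meiosis genes, 29 were in the tables and 12 were tested, and 2 rose and 2 fell in Inv(3) against control, near the 18.4% and 20.3% of all genes tested. Of these 12, 1 rose and 1 fell without control replicate 1 or without control replicate 3. Against Sf3b1-K700E, 2 rose and 5 fell in the double mutant, beside 25.7% and 23.5% of all genes tested. Spo11, which cuts DNA in meiosis, fell by 2.24 on the log2 scale in Inv(3) against control (SE 0.28, adjusted p = 8.6e-05) and by 1.48 in the double mutant against Sf3b1-K700E (SE 0.24, adjusted p = 0.00037). Sycp1, Tex101, Tnp1 and Prm1, genes of meiotic and post-meiotic germ cells, had no count in any genotype.

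Of the neighbours, Fam163a beside Tdrd5 and Aspg beside Tdrd9 had no count in any library. An antisense transcript overlaps the GENCODE start of Tdrd5, and the coding gene Rd3l lies inside Tdrd9 on the opposite strand. Rd3l had 0 to 3 counts per library, and in unstranded libraries reads of overlapping genes cannot be told apart.

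Stereocilin RNA was highest in Inv(3) alone. Strc (chr2:121363728-121387168) had 710, 332 and 197 counts in the double mutant, 622, 1338 and 1278 in Inv(3), 3, 9 and 3 in Sf3b1-K700E, and 12, 16 and 12 in control. Libraries with Inv(3) lay far above those without it, and replicate 1 of the double mutant, with 57.3% of that group's counts, overlapped the lowest Inv(3) library. Strc averaged 1.56 ± 0.929 TPM in the double mutant and 4.01 ± 1.43 TPM in Inv(3) (SD, n = 3). The ratio was 83.4 in Inv(3) against control (61.1 to 117) and 87.4 in the double mutant against Sf3b1-K700E (52.8 to 157). In Sf3b1-K700E against control it was 0.355 (0.182 to 0.657), with no overlap of libraries. Strc ends in an overlap with Ckmt1 on the opposite strand, which had 0 or 1 count in each library. Its neighbour Catsper2 was called in neither Inv(3) comparison. Ppip5k1, on the other side, rose by 0.23 ± 0.07 log2 units in Inv(3) against control (SE, edgeR adjusted p = 0.017), a call lost without control replicate 1 or 3 and without Inv(3) replicate 1.

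Among relatives of stereocilin and other inner-ear genes, Otogl, an otogelin-like protein, rose by 1.15 ± 0.10 log2 units in Inv(3) against control (SE, edgeR adjusted p = 7.2e-06) and by 1.69 ± 0.10 in the double mutant against Sf3b1-K700E (adjusted p = 2.8e-07). Of 20 listed, 6 were tested, and 2 rose and none fell in Inv(3) against control, beside 18.4% higher and 20.3% lower of all genes tested. Only 1 rose without control replicate 1, Inv(3) replicate 3 or double-mutant replicate 3. Against Sf3b1-K700E, 3 rose and 1 fell in the double mutant, beside 25.7% higher and 23.5% lower of all genes tested. Whrn, a scaffold of hair bundles, rose by 1.68 ± 0.24 (adjusted p = 0.00013) and Cdh23, a cadherin of their tip links, by 1.12 ± 0.19 (adjusted p = 0.00039), while Tmc1, a subunit of the hair-cell transduction channel, fell by 2.30 on the log2 scale (SE 0.64, adjusted p = 0.011). The medians were 0.57 in both comparisons, beside 0.00 and 0.03 over all genes. Msln, Tectb, Otog, Gjb6 and Lhfpl5 had no count in any genotype.

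Col4a3 was detected in both genotypes with Inv(3) and in no other library. Col4a3 (chr1:82586921-82722059) had 33, 36 and 33 counts in the double mutant, 11, 6 and 9 in Inv(3), and none in the 3 Sf3b1-K700E or the 3 control libraries. Each double-mutant library lay above each Inv(3) library. Against a floor of 3 counts over a group, it was at least 36.0-fold higher in the double mutant than in Sf3b1-K700E and at least 8.93-fold higher in Inv(3) than in control. The ratio in the double mutant against Inv(3) was 3.81 (2.46 to 6.11). Its level was low in every genotype, at 0.0867 ± 0.00577 TPM in the double mutant and 0.0233 ± 0.00577 TPM in Inv(3) (SD, n = 3). A processed transcript, C430014B12Rik, overlaps the end of Col4a3 on the opposite strand and has no counts of its own here. Its reads cannot be told apart from those of Col4a3 in unstranded libraries.

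Col4a4, the alpha-4 chain that assembles with Col4a3, begins 72 bases away on the opposite strand. It had 22, 15 and 8 counts in the double mutant, 4, 0 and 2 in Inv(3), 4, 1 and 1 in Sf3b1-K700E, and 1, 1 and 0 in control. It was below the low-count filter. In a fit of 17745 genes without that filter, Col4a4 rose by 2.90 ± 0.69 log2 units in the double mutant against Sf3b1-K700E (SE, edgeR adjusted p = 0.0046) and by 2.78 ± 0.70 in the double mutant against Inv(3) (adjusted p = 0.016). In Inv(3) against control it was at 1.46 ± 1.17 and did not pass (adjusted p = 0.40). On the other side of Col4a3, Mff, a factor of mitochondrial fission, rose by 0.28 ± 0.06 in Inv(3) against control (adjusted p = 0.0026) and by 0.50 ± 0.06 in the double mutant against Sf3b1-K700E (adjusted p = 2.7e-05).

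The common chains of type IV collagen rose as well, at a higher level. Col4a1 was at 11.2 TPM in the double mutant, 5.14 TPM in Inv(3), 1.59 TPM in Sf3b1-K700E and 0.937 TPM in control. It rose by 2.58 ± 0.26 log2 units in Inv(3) against control (SE, edgeR adjusted p = 2.4e-05) and by 2.90 ± 0.25 in the double mutant against Sf3b1-K700E (adjusted p = 5.4e-06). Its partner Col4a2 rose by 2.22 ± 0.22 (adjusted p = 2.1e-05) and 2.76 ± 0.22 (adjusted p = 2.6e-06) in these comparisons. The basement membrane laminin Lama5 rose by 2.27 ± 0.18 (adjusted p = 3.7e-06) and 2.33 ± 0.18 (adjusted p = 1.5e-06), and the proteoglycan agrin (Agrn) by 1.31 ± 0.13 (adjusted p = 1.9e-05) and 1.27 ± 0.13 (adjusted p = 1.3e-05).

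Of 18 type IV collagen and basement membrane genes, 11 were tested. In Inv(3) against control 5 rose (18.4% of all genes tested did) and 1 fell (20.3%), with a median of 1.30 beside 0.00 over all genes. The double mutant against Sf3b1-K700E had 6 risen (25.7%) and 1 fallen (23.5%), with a median of 0.66 beside 0.03. Col4a5, the third chain of the Col4a3 and Col4a4 trimer, was not called, at 0.411 ± 0.179 CPM in the double mutant, 0.281 ± 0.128 CPM in Inv(3), 0.292 ± 0.0855 CPM in Sf3b1-K700E and 0.231 ± 0.0550 CPM in control (SD, n = 3). Against Inv(3), 3 rose and none fell in the double mutant, beside 13.4% higher and 9.13% lower of all genes tested: Col4a2 by 1.06 ± 0.20 (adjusted p = 0.0048), Col4a1 by 1.03 ± 0.23 (adjusted p = 0.011) and Lama5 by 0.79 ± 0.17 (adjusted p = 0.0073). Without Inv(3) replicate 2 or double-mutant replicate 2, 4 rose and 1 fell in that comparison.

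Capn11 went opposite ways with Inv(3) on the 2 backgrounds. Capn11 (chr17:45630204-45659325) had 894, 502 and 758 counts in the double mutant, 2, 0 and 0 in Inv(3), 47, 88 and 135 in Sf3b1-K700E, and 238, 192 and 203 in control. The 4 genotypes did not overlap, with the double mutant highest, then control, then Sf3b1-K700E, and Inv(3) at or near 0. Their levels were 6.39 ± 1.62 TPM in the double mutant, 0.00667 ± 0.0115 TPM in Inv(3), 0.803 ± 0.355 TPM in Sf3b1-K700E and 1.92 ± 0.276 TPM in control (SD, n = 3). Inv(3) against control gave a ratio of 0.00325 (95% counting interval 0.000393 to 0.0118). The double mutant against Sf3b1-K700E gave a ratio of 8.44 (7.43 to 9.61).

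With Sf3b1-K700E the order turned round as well. Capn11 had a ratio of 0.404 in Sf3b1-K700E against control (0.349 to 0.466) and of 1047 in the double mutant against Inv(3) (289 to 8650.0). The double mutant stood above control, with a ratio of 3.41 (3.12 to 3.73). Tmem63b, which ends 846 bases from Capn11, was not called in Inv(3) against control (-0.10 ± 0.10 log2 units, edgeR adjusted p = 0.46). In the double mutant against Sf3b1-K700E it rose by 0.28 ± 0.10 (adjusted p = 0.030), a call lost without Sf3b1-K700E replicate 2 or 3 and without double-mutant replicate 1 or 3.

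Capn1, Capn2 and Capn3 had the same direction on both backgrounds. Capn2, the large subunit of the widely expressed m-calpain, fell by 1.65 on the log2 scale in Inv(3) against control (SE 0.12, edgeR adjusted p = 2.6e-06) and by 2.01 in the double mutant against Sf3b1-K700E (SE 0.12, adjusted p = 3.6e-07). Capn1, that of mu-calpain, rose by 0.47 ± 0.05 (adjusted p = 5.2e-05) and 0.42 ± 0.05 (adjusted p = 7.4e-05), and Capn3, the calpain of muscle, by 1.50 ± 0.20 (adjusted p = 0.00014) and 1.65 ± 0.20 (adjusted p = 4.9e-05). Of 11 tested of 15, 4 rose and 3 fell in Inv(3) against control and 5 rose and 2 fell in the double mutant against Sf3b1-K700E, with medians of 0.17 and 0.19 beside 0.00 and 0.03 over all genes. The shares over all genes tested were 18.4% higher and 20.3% lower, and 25.7% higher and 23.5% lower.

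Camk2b was present in all 12 libraries and so was never near 0. Camk2b (chr11:5969644-6066362) had 1064, 991 and 793 counts in the double mutant, 290, 479 and 281 in Inv(3), 107, 147 and 173 in Sf3b1-K700E, and 480, 308 and 337 in control. The double mutant lay above and Sf3b1-K700E below all other libraries, and Inv(3) and control overlapped. Levels averaged 5.34 ± 0.578 TPM in the double mutant, 1.92 ± 0.662 TPM in Inv(3), 0.807 ± 0.179 TPM in Sf3b1-K700E and 2.17 ± 0.605 TPM in control (SD, n = 3). Inv(3) against control gave a ratio of 0.961 (0.883 to 1.05) and the double mutant against Sf3b1-K700E one of 7.06 (6.37 to 7.83). As with Capn11, the ratio was under 1 in Sf3b1-K700E against control (0.359, 0.321 to 0.402) and above 1 in the double mutant against Inv(3) (2.64, 2.46 to 2.83).

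The other subunits of CaM kinase II had a different order. Camk2a, the alpha subunit, was at 5.29 TPM in the double mutant, 2.45 TPM in Inv(3), 12.4 TPM in Sf3b1-K700E and 10.5 TPM in control. It fell by 1.99 on the log2 scale in Inv(3) against control (SE 0.11, edgeR adjusted p = 3.3e-07) and by 1.14 in the double mutant against Sf3b1-K700E (SE 0.11, adjusted p = 8.2e-06). Camk2d fell by 2.74 (SE 0.21, adjusted p = 2.9e-06) and 2.73 (SE 0.21, adjusted p = 1.5e-06). Camk2g, the most abundant subunit at 36.9 TPM in the double mutant, 32.5 TPM in Inv(3), 30.6 TPM in Sf3b1-K700E and 30.7 TPM in control, rose by 0.20 ± 0.04 (adjusted p = 0.0025) and 0.36 ± 0.04 (adjusted p = 2.6e-05). The kinase-like neuronal protein Camkv rose by 3.47 ± 0.47 (adjusted p = 0.00015) and 3.63 ± 0.42 (adjusted p = 3.0e-05). Of 10 tested of 13 calmodulin kinases and their inhibitors, 4 rose and 3 fell in Inv(3) against control and 5 rose and 3 fell in the double mutant against Sf3b1-K700E, with medians of 0.11 and 0.34 beside 0.00 and 0.03 over all genes, of which 18.4% rose and 20.3% fell and 25.7% rose and 23.5% fell. The neighbour Ykt6, which ends 1864 bases from Camk2b, was called in neither comparison. Nudcd3, on the other side, rose by 0.13 ± 0.04 in the double mutant against Sf3b1-K700E (adjusted p = 0.010), a call lost without Sf3b1-K700E replicate 2 or 3.

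**Figure D2:**
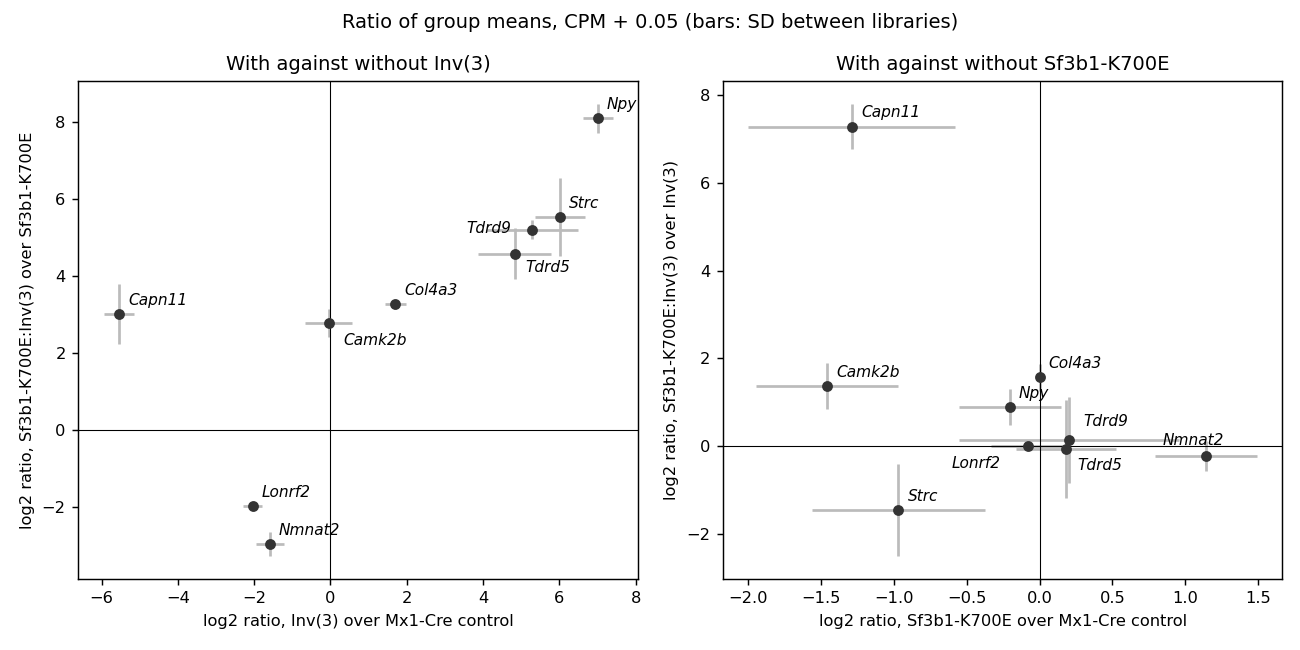
Log2 ratio of group means (CPM + 0.05) for the 9 genes. Left, the double mutant over Sf3b1-K700E (y) against Inv(3) over control (x); right, the double mutant over Inv(3) (y) against Sf3b1-K700E over control (x); bars are SDs from the 3 libraries a group. Capn11 lies at -5.54 and 3.03 on the left and at -1.29 and 7.28 on the right, and Camk2b at -1.46 and 1.37 on the right.

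Lonrf2 and Nmnat2 were the genes found without Inv(3) and at or near 0 with it on both backgrounds. Lonrf2 (chr1:38793645-38836711) had no count in any double-mutant or Inv(3) library, 12, 12 and 12 in Sf3b1-K700E, and 9, 14 and 14 in control. It was thus a low transcript even where present, at 0.0533 ± 0.00577 TPM in Sf3b1-K700E and 0.0533 ± 0.0115 TPM in control (SD, n = 3), and the ratio between them was 0.921 (0.566 to 1.50). Against a floor of 3 counts over a group, Lonrf2 was at least 11.97-fold lower in Inv(3) than in control and at least 11.3-fold lower in the double mutant than in Sf3b1-K700E.

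Its neighbour Chst10, a sulfotransferase of the HNK-1 carbohydrate, lies 27156 bases away and was likewise low in both genotypes with Inv(3). Chst10 had 3, 10 and 7 counts in the double mutant, 14, 2 and 5 in Inv(3), 108, 119 and 128 in Sf3b1-K700E, and 95, 91 and 106 in control. It fell by 3.73 on the log2 scale in Inv(3) against control (SE 0.44, edgeR adjusted p = 5.3e-05) and by 4.04 in the double mutant against Sf3b1-K700E (SE 0.44, adjusted p = 1.9e-05). Aff3, a nuclear protein on the other side, rose by 0.46 ± 0.13 (adjusted p = 0.015, a call lost without control replicate 1) and 0.97 ± 0.13 (adjusted p = 9.2e-05). Of the 5 other genes with a LON domain, all tested, 1 rose and 2 fell in Inv(3) against control and 2 rose and 2 fell in the double mutant against Sf3b1-K700E, with medians of -0.07 and -0.03, and shares over all genes tested of 18.4% and 20.3%, and 25.7% and 23.5%. Crbn, the substrate receptor bound by thalidomide, rose by 0.29 ± 0.07 in both (adjusted p = 0.0088 and 0.0074).

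Nmnat2 (chr1:152954993-153119261) had 1, 0 and 0 counts in the double mutant, 1, 0 and 2 in Inv(3), 38, 24 and 30 in Sf3b1-K700E, and 10, 9 and 14 in control. The libraries without Inv(3) lay above all others, and those of Sf3b1-K700E above those of control. The ratio was 0.0936 in Inv(3) against control (0.0184 to 0.298), 0.0115 in the double mutant against Sf3b1-K700E (0.000288 to 0.0657) and 2.64 in Sf3b1-K700E against control (1.76 to 4.06). Its highest level was 0.153 ± 0.0321 TPM, in Sf3b1-K700E (SD, n = 3). An antisense transcript overlaps it.

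The nuclear enzyme Nmnat1 and the mitochondrial Nmnat3 were far more abundant. Nmnat3 was at 16.5 TPM in the double mutant, 14.7 TPM in Inv(3), 19.7 TPM in Sf3b1-K700E and 21.1 TPM in control, and fell by 0.41 on the log2 scale in Inv(3) against control (SE 0.07, edgeR adjusted p = 0.00071). Nmnat1, at 9.18 TPM in the double mutant, 7.87 TPM in Inv(3), 9.68 TPM in Sf3b1-K700E and 8.58 TPM in control, was called in neither Inv(3) comparison. Of 17 NAD genes with 16 tested, 3 rose and 6 fell in Inv(3) against control and 5 rose and 5 fell in the double mutant against Sf3b1-K700E, with medians of -0.13 and -0.10 beside 0.00 and 0.03. Over all genes tested, 18.4% rose and 20.3% fell in Inv(3) against control, and 25.7% rose and 23.5% fell in the double mutant against Sf3b1-K700E. Naprt, which makes NAD from nicotinic acid, rose by 1.12 ± 0.15 (adjusted p = 0.00017) and 1.38 ± 0.15 (adjusted p = 2.2e-05). The NAD kinase Nadk2 fell by 0.44 (SE 0.06, adjusted p = 9.8e-05) and 0.54 (SE 0.06, adjusted p = 1.4e-05). Kmo, of NAD synthesis from tryptophan, fell by 1.61 (SE 0.20, adjusted p = 7.7e-05) and 0.95 (SE 0.19, adjusted p = 0.0015).

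**Figure D3:**
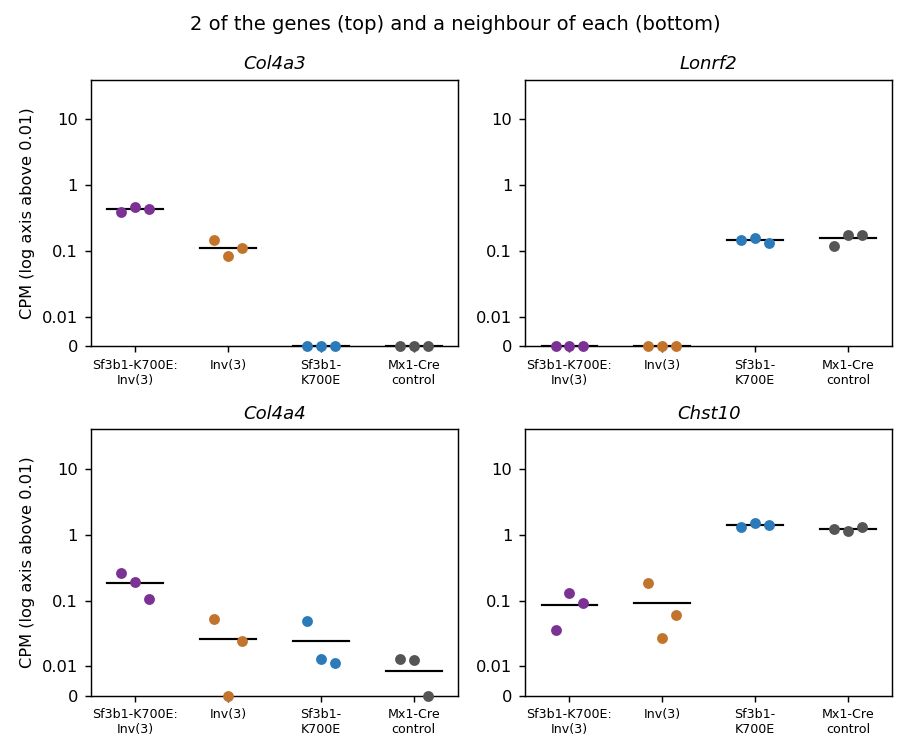
Level in CPM (y axis, log scale above 0.01) of Col4a3 and Lonrf2 (top) and their neighbours Col4a4 and Chst10 (bottom) in the 3 libraries of each genotype; bars are group means. Chst10 drops with Lonrf2 in both genotypes with Inv(3), at 2 to 14 counts against 91 to 128 in the other libraries, while Col4a4 is highest, at 8 to 22 counts, in the double mutant.

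Genes of neurons were found at low summed levels. Of 24 listed, 7 were tested, and Snap25, Stmn2 and Scg2 had no count in any genotype. Their summed level was 9.23 to 13.7 CPM in the double mutant, 3.30 to 5.05 CPM in Inv(3), 3.02 to 3.84 CPM in Sf3b1-K700E and 2.04 to 2.96 CPM in control. In Inv(3) against control 2 rose and none fell, beside 18.4% and 20.3% of all genes tested, and without Inv(3) replicate 2, 2 rose and 2 fell. Of the 7, 3 rose and none fell in the double mutant against Sf3b1-K700E, beside 25.7% and 23.5%, with medians of -0.36 and -0.22 in these comparisons beside 0.00 and 0.03. The risen genes included Uchl1, a neuronal deubiquitinase (1.87 ± 0.33, edgeR adjusted p = 0.00096, and 2.89 ± 0.32, adjusted p = 2.3e-05), and Chga, a protein of secretory granules (2.06 ± 0.48, adjusted p = 0.0055, and 2.91 ± 0.42, adjusted p = 0.00016). Both were also higher in the double mutant than in Inv(3), Uchl1 by 1.73 ± 0.30 (adjusted p = 0.0032) and Chga by 1.94 ± 0.40 (adjusted p = 0.0062).

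The repressors named above were present throughout. Rest was at 41.5 ± 1.93 CPM in the double mutant, 38.8 ± 3.39 CPM in Inv(3), 37.8 ± 2.08 CPM in Sf3b1-K700E and 40.6 ± 0.975 CPM in control (SD, n = 3), and was not called in Inv(3) against control (edgeR adjusted p = 0.48) or in the double mutant against Sf3b1-K700E (adjusted p = 0.11). Its corepressor Rcor2 fell by 1.47 on the log2 scale (SE 0.24, adjusted p = 0.00056) and 0.87 (SE 0.23, adjusted p = 0.0084). Inv(3) against control had 2 risen and 2 fallen genes of 14 tested in the REST complex, and 1 of each without control replicate 2. The double mutant against Sf3b1-K700E had 4 risen and 3 fallen, and 2 to 4 in all were called without Sf3b1-K700E replicate 2 or 3 or without any 1 of the double-mutant libraries. The medians were 0.01 and 0.08, and the shares over all genes tested 18.4% higher and 20.3% lower, and 25.7% higher and 23.5% lower.

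Of 20 genes of PRC1.6 and DNA methylation, all tested, 2 rose and 4 fell in Inv(3) against control, beside 18.4% higher and 20.3% lower of all genes tested. The double mutant against Sf3b1-K700E had 2 risen and 5 fallen, beside 25.7% and 23.5%, and the medians were -0.05 in both. The DNA methyltransferase Dnmt3a rose by 0.30 ± 0.05 log2 units (SE, edgeR adjusted p = 0.0011) and 0.50 ± 0.05 (adjusted p = 1.9e-05), and its cofactor Dnmt3l by 1.49 ± 0.22 (adjusted p = 0.00025) and 1.12 ± 0.22 (adjusted p = 0.0012). The histone methyltransferase Setdb1 fell by 0.18 (SE 0.04, adjusted p = 0.0024) and 0.34 (SE 0.04, adjusted p = 2.2e-05). E2f6, the DNA-binding factor of PRC1.6, fell by 0.32 in the double mutant against Sf3b1-K700E (SE 0.04, adjusted p = 9.4e-05). The maintenance methyltransferase Dnmt1 and its partner Uhrf1 were called in neither comparison.

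**Figure D4:**
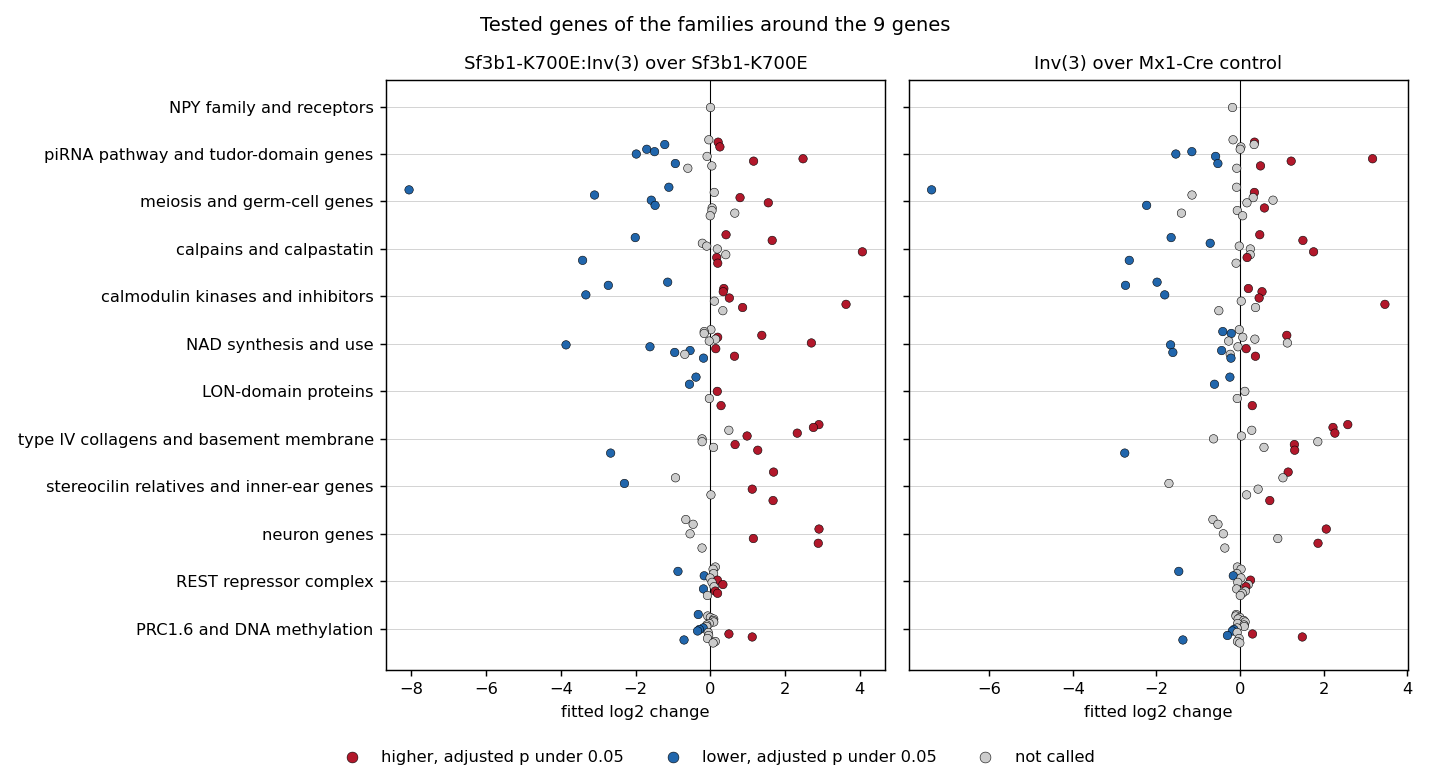
Fitted log2 change (x axis) of each tested gene of the lists around the 9 genes (1 row a list, with vertical spread only to separate points), in the double mutant over Sf3b1-K700E (left) and in Inv(3) over control (right); red points rose and blue points fell at an adjusted p under 0.05, and grey points were not called. Col4a1, Col4a2, Lama5 and Agrn stand at 1.27 to 2.90 in both panels, whereas the piRNA, meiosis and NAD lists spread to both sides.

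Across all 24411 listed genes, few were near 0 in 1 genotype and expressed in another, taken as a mean under 0.1 CPM against at least 1 CPM with no overlap of libraries. In the double mutant against Sf3b1-K700E 14 genes (0.0574%) were on in the double mutant, among them Npy, Tdrd5 and Strc, and 42 (0.172%) were on in Sf3b1-K700E, none of the 9 among them. In Inv(3) against control 9 genes (0.0369%) were on in Inv(3), Npy and Tdrd5 among them, and 20 (0.0819%) were on in control, Capn11 among them. In the double mutant against Inv(3) 6 genes (0.0246%) were on in the double mutant, Capn11 among them, and 2 (0.00819%) were on in Inv(3). In Sf3b1-K700E against control 1 gene (0.00410%) was on in Sf3b1-K700E and none (0.00%) in control, and neither direction held any of the 9. The double mutant against control had 18 genes on in the double mutant (0.0737%), Npy and Tdrd5 among them, and 23 on in control (0.0942%). With a limit of 0.2 CPM in place of 0.1, Tdrd9 and Strc joined Npy and Tdrd5 in Inv(3) against control.

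The label of a switch between off and on thus fitted the 9 genes unequally. Npy, Tdrd5 and Capn11 were within 0 to 2 counts in each library of at least 1 genotype and reached 54 counts or more in each library of another. Tdrd9 and Strc kept 3 to 16 counts in each library without Inv(3). Col4a3 did not pass 36 counts, Nmnat2 38 and Lonrf2 14 in any library, and Camk2b did not drop below 107.

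Each of the 9 was set beside other genes by Pearson correlation of log2(CPM + 0.5) over the 12 libraries. Those ranked were 10906 genes with a mean of at least 1 CPM. This correlation does not take in the size of a change, so a gene alike in pattern need not switch on or off. These libraries cluster by genotype, so the values describe likeness and carry no p. Npy was most like Cmtm8 (r = 0.997), Ms4a4c (0.997) and Ecm1 (0.995), Tdrd5 most like Ptprk (0.984) and Tdrd9 most like Nab2 (0.991). Cmtm8 summed to 911 counts in the double mutant, 703 in Inv(3), 235 in Sf3b1-K700E and 222 in control, and so was never near 0. Strc was most like Adcy3 (0.975) and Camk2b most like Vwa8 (0.928). Vwa8 was nearly level, with sums of 16499 in the double mutant, 15237 in Inv(3), 15490 in Sf3b1-K700E and 15571 in control. Col4a3 was most like Ggt1 (0.990), Shisa7 (0.987) and Fam20a (0.977), and Fam20a summed to 861 counts in the double mutant, 203 in Inv(3), 5 in Sf3b1-K700E and 5 in control. Capn11 was most like Fads3 (0.932), Pcdhgb4 (0.906) and Zfp799 (0.886). Zfp799 changed little, with sums of 5577 in the double mutant, 4026 in Inv(3), 4591 in Sf3b1-K700E and 4485 in control. Lonrf2 was most like Cd22 (0.991), a surface protein of B cells, and then like Pgr (0.989). Cd22 summed to 29 counts in the double mutant, 19 in Inv(3), 598 in Sf3b1-K700E and 541 in control. Nmnat2 was most like Klhl22 (0.974). Among the 9, Tdrd5 and Tdrd9 had r = 0.98, Npy and Tdrd9 0.96, Npy and Lonrf2 -0.97, and Capn11 and Npy 0.13.

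Markers of mature and other blood cells differed between the genotypes as well. Mature neutrophil markers summed to 3141 to 4410 CPM in the double mutant, 5142 to 6173 CPM in Inv(3), 1479 to 2537 CPM in Sf3b1-K700E and 1767 to 2471 CPM in control. Of 11 tested, 7 rose and 1 fell in Inv(3) against control, beside 18.4% higher and 20.3% lower of all genes tested, and 6 rose and none fell in the double mutant against Sf3b1-K700E, beside 25.7% and 23.5%. Macrophage markers summed to 75.9 to 97.0 CPM in the double mutant, 88.4 to 137 CPM in Inv(3), 482 to 684 CPM in Sf3b1-K700E and 358 to 439 CPM in control, and all 12 fell in the double mutant against Sf3b1-K700E, as did 23.5% of all genes tested. In Sf3b1-K700E against control, where Nmnat2 was higher, 10 of the 12 rose, beside 3.94% of all genes tested. All 12 erythroid markers fell in the double mutant against Sf3b1-K700E as well, beside 23.5% of all genes tested. Their sums were 366 to 420 CPM in the double mutant and 1076 to 1188 CPM in Sf3b1-K700E. In Inv(3) against control 7 of the 12 fell and 1 rose, beside 20.3% and 18.4% of all genes tested. Sf3b1-K700E against control had 3 risen and none fallen, beside 3.94% and 4.90%. Of 10 tested B-cell markers, 9 fell and 1 rose in the double mutant against Sf3b1-K700E, beside 23.5% lower and 25.7% higher of all genes tested. Their summed level went the other way, at 32.7 to 33.7 CPM in the double mutant and 28.7 to 30.7 CPM in Sf3b1-K700E. In Sf3b1-K700E against control 6 of these 10 rose and none fell, beside 3.94% higher and 4.90% lower. Without control replicate 2, 3 rose. In Inv(3) against control 1 rose and 4 fell, beside 18.4% and 20.3%. Leaving out any 1 control library, 1 rose and 2 fell there. The part of these cell types in the levels of the 9 genes was not tested.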

How the data were processed

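Poly(A) RNA of 12 libraries, 3 for each of 4 donor genotypes, was measured. Expected counts and TPM per gene were deposited by the authors in tables with RSEM-type columns, per the file headers, with an effective length per gene. bcl2fastq and the build mm10 are named per the submitters' processing notes. The aligner, and every upstream version, was not given in the sources used here.

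The deposited expected counts were rounded and fitted with edgeR 4.0.16 (R 4.3.3, limma 3.58.1): filterByExpr, which kept 13755 of 24411 genes, TMM scaling, a robust quasi-likelihood F test on all 12 libraries with a term for genotype, and Benjamini-Hochberg adjustment over all genes tested, called at 0.05. DESeq2 1.42.0 was an alternative, and the fit was tested on simulated data. CPM are counts over TMM-scaled library sizes. Ratios are of summed counts over scaled library sizes, with exact conditional binomial 95% intervals. Log2 ratios of group means add 0.05 CPM. Library totals of 73074788 to 86555636 counts limit precision for genes of few counts only. Intervals and the floor of 3 counts cover counting error only. Gene positions are from GENCODE vM21 on GRCm38, and promoters from RefSeq on GRCm38.p6. The RefSeq starts of Strc, Tdrd5, Camk2b and Nmnat2, among others, lie inside the GENCODE genes, furthest for Strc. Reads of overlapping genes cannot be told apart in unstranded libraries.

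The 9 genes, the gene lists and the tests were chosen with earlier results of these data known. Some neighbours and markers are not reported here. The text names all 9, other nearest protein-coding neighbours and at most 3 genes most like each by correlation. Of each list it names genes with no count in any genotype, and at most 4 called with the smallest p in a comparison. Dpp4, Npy1r, Col4a5, Dnmt1, Uhrf1, Nmnat1 and Rest were added, with their values seen, as close relatives or partners.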

Additional observations from a re-analysis of the deposited data

Results flagged for a closer look

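Capn11 stood out because every library moved one way on 1 background and the opposite way on the other. As the log2 ratio of group means (CPM + 0.05), it was 3.03 in the double mutant against Sf3b1-K700E and -5.54 in Inv(3) against control. For the splicing mutation it was 7.28 in the double mutant against Inv(3) and -1.29 in Sf3b1-K700E against control. Camk2b did the same for the splicing mutation alone, at 1.37 in the double mutant against Inv(3) and -1.46 in Sf3b1-K700E against control. These differences between backgrounds were not tested, since both genes were chosen on these values. The Inv(3) libraries are also the ones without Y-linked RNA, and the part of that in the Inv(3) values was not tested.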

How the results depend on the processing

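Log2 ratios of the 9 genes were computed again under deposited TPM, another scaling, another pseudocount or leaving out 1 library. Of these, 364 moved by less than the spread between replicates and 86 did not. The 86 include each setting of Col4a3 in Sf3b1-K700E against control and of Lonrf2 in the double mutant against Inv(3). Those ratios stayed at 0 with no spread, since neither gene had a count in those libraries. Ratios between groups that did not overlap kept their sign. Among overlapping groups the sign turned, on leaving out 1 library, for Tdrd5 and Tdrd9 in the double mutant against Inv(3) (-0.38 to 0.63 and -0.14 to 0.91), for Camk2b in Inv(3) against control (-0.39 to 0.20) and for Tdrd9 in Sf3b1-K700E against control (-0.11 to 0.49), and for Tdrd5 in the double mutant against Inv(3) also with TPM. Without Inv(3) replicate 2 the ratio of the double mutant to Inv(3) was 0.63 in place of -0.06 for Tdrd5 and 0.91 in place of 0.14 for Tdrd9. Of the counts of called genes, 1216 in Sf3b1-K700E against control became 1881 with DESeq2 and 176 to 1649 without 1 library, lowest without Sf3b1-K700E replicate 2, with 223 without control replicate 2, 614 without control replicate 1 and 690 without control replicate 3. The 3103 in the double mutant against Inv(3) became 1916 with the compared groups alone and 1568 to 3345 without 1 library, lowest without double-mutant replicate 3, with 1678 without replicate 1. The counts were 4342 to 5559 in Inv(3) against control, 5474 to 7081 in the double mutant against Sf3b1-K700E and 4424 to 5925 in the double mutant against control. The cause was not tested. Of the list counts, 1516 stayed within 1.5 times and 164 did not.

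Same-numbered libraries had correlations of -0.589 to 0.413 in their deviations from group means. Libraries with different numbers had -0.322 to 0.567, so these values gave no sign that the numbers pair libraries. They cannot exclude it, since deviations within a group sum to 0 and tie the correlations to each other. With the replicate block the count in Sf3b1-K700E against control was 654.

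The number of genes near 0 in 1 genotype and on in another follows its limits. At under 0.05 CPM against at least 1 it was 18 in the double mutant against Sf3b1-K700E (56 as reported), 17 in Inv(3) against control (29) and 19 in the double mutant against control (41). At under 0.1 against at least 0.5 it was 142, 90 and 108, and 3 in Sf3b1-K700E against control (1). At under 0.1 against at least 2 it was 16, 10 and 10. At under 0.2 against at least 1 it was 133, 75 and 101, and 4 in Sf3b1-K700E against control.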
